A study of Mus musculus with 7 samples.

Results

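RNA-Seq libraries of double-positive (DP) thymocytes from LP mice, which lack Id2, Id3 and pTα, were compared with those from L-DKO mice, which lack Id2 and Id3 alone. The comparison was taken from the library labels, 2 LP against 2 L-DKO libraries, or 4 of the 7 labelled samples. Levels are in log2(FPKM + 1). FPKM counts the fragments of a transcript scaled by transcript length and library size, and each difference is LP minus L-DKO on that scale with its standard error (SE). Id2 and Id3 were floxed and deleted by Cre under the Lck promoter, which acts in early thymocytes, in both groups. LP mice (L-DKO pTαKO) carried in addition a germline loss of pTα. The series also holds pTαKO mice, of which 1 library was used here, and WT mice, with 1 library. Those libraries are given beside the comparison as single values. All mice were 4 to 5 weeks old, and the sorted cells were TCRγδ- CD4+ CD8+. Each library came from 1 mouse, and the animals were B6/129 hybrid littermates, so a group holds 2 mice and its spread rests on a single gap. The question of the comparison is what the loss of pTα adds in DP cells when both Id proteins are already gone.

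DP thymocytes of normal mice have passed β-selection. At this checkpoint a rearranged TCR beta chain pairs with pTα, encoded by Ptcra, to form the pre-TCR. The DP cells labelled LP arose in mice without pTα. The pre-TCR drives proliferation, and is followed by a drop of Notch1 expression and by rearrangement of the TCR alpha locus. Id2 and Id3 hold E proteins such as E2A off DNA, and pre-TCR and TCR signals normally raise Id3. At the DP stage, low-level TCR signals set the amount of CD5, and cells that receive a stronger signal express CD69 and the NR4A nuclear receptors.

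The number of reads per library is not stated in the file. Median levels were close, between 3.95 and 4.02 over the 6 libraries, and the 20 most abundant genes held 53.7% and 72.7% of all FPKM in LP and 62.4% in each L-DKO library. Markers of DP cells were high in both groups. Cd4, Cd8a, Cd8b1, Rag2, Dntt, Cd24a and Thy1 lay between 6.50 and 10.22 in the 4 libraries, and their differences ran from -0.31 to -0.01. Over the whole list of coreceptors and DP stage genes, the LP pair lay wholly above the L-DKO pair in 4 of 25 measured members (16%, against 22.3% of all genes) and wholly below it in 11 (44.0%, against 22.2%). Ptcra was listed at 5.35 and 5.87 in the LP libraries and 6.35 and 6.62 in the L-DKO libraries, and at 5.75 in pTαKO and 5.06 in WT, so the deletion of pTα could not be verified from this value, which covers the whole gene, and LP is used as the name on the label. Id3 had values of 1.96 and 3.18 in the LP libraries and 1.91 and 3.32 in the L-DKO libraries, against 6.22 in WT. Id2 had values of 1.92 and 0.99 in the LP libraries and 1.00 and 0.24 in the L-DKO libraries, against 3.56 in WT. It was at 1.87 in pTαKO, where Id2 is intact, and LP replicate 1 was not below that library. One LP library stood apart in genes of the Y chromosome. Ddx3y, an RNA helicase gene, had values of 4.21 and 0.63 in the LP libraries, 5.14 and 4.81 in the L-DKO libraries, 0.67 in pTαKO and 4.36 in WT, and Eif2s3y, Kdm5d and Uty were low in the same libraries, LP replicate 2 and pTαKO.

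Over the 12063 genes tested with limma, 1 gene rose and 1 fell after Benjamini-Hochberg adjustment, 0.00829% of genes in each direction, whereas 1338 had an unadjusted p under 0.05. Both are gene models. Gm8730, annotated as a pseudogene, rose to 8.10 and 7.98 in the LP libraries, against 3.90 and 4.00 in the L-DKO libraries, a difference of 4.09 ± 0.13 (adjusted p in limma 0.00577). It was at 7.89 in pTαKO and 8.55 in WT, so L-DKO was the low group and LP lay below WT. Gm24586 fell to a listed value of 0 in each LP library, against 15.59 and 15.62 in the L-DKO libraries (adjusted p in limma 1.13e-05). It was also at 0 in pTαKO, and at 14.54 in WT. A value of 0 in this file need not mean that no RNA was there, so no fold is given. The next lowest adjusted p was 0.0551, for Scn4b and Ccdc153. No other gene named below passed the test, and with 2 libraries against 2 an exact permutation test cannot go below p = 0.333.

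The remaining genes are therefore described by overlap between libraries. Both LP libraries lay above both L-DKO libraries for 22.3% of genes and below them for 22.2%, at any size, and the counts of list members without overlap given below are to be read against these shares. At least 2-fold apart were 610 genes above (5.06%) and 351 below (2.91%). Replicates of a group differed by a median of 0.29 in LP and 0.31 in L-DKO on the log2 scale. Those among them with close replicates, meaning a gap of at most 0.5 in each group and a mean of at least 3 in the higher group, were taken as the core of the comparison. They numbered 95 above (0.788%) and 56 below (0.464%), with median differences of 1.45 and -1.22. Of the 95 higher genes 81 were annotated as protein coding and none was a receptor segment. Of the 56 lower genes 35 were protein coding and 14 were V segments of the TCR, 10 of them Trbv segments.

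**Figure D1:**
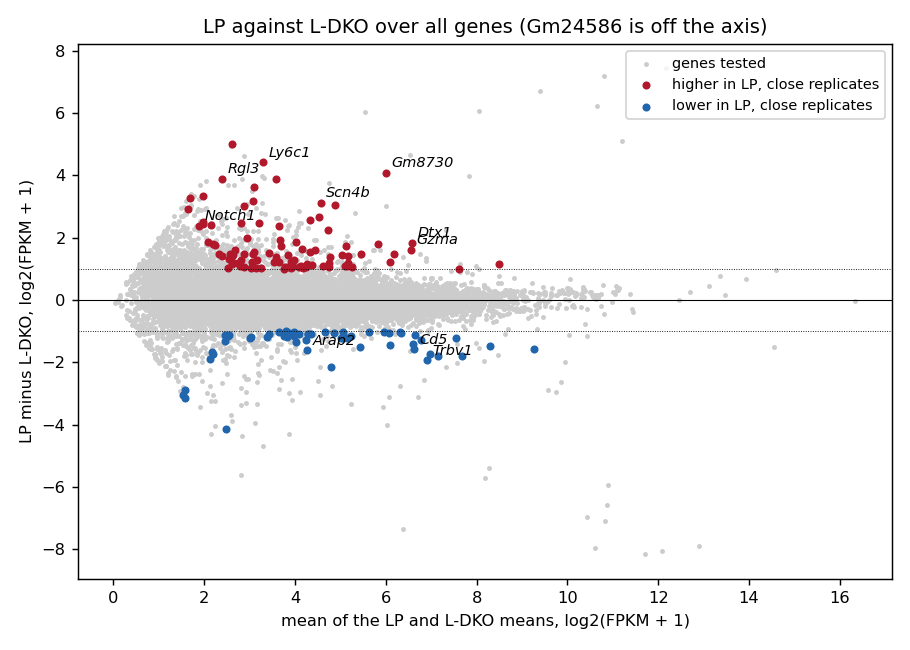
Difference LP minus L-DKO, as log2(FPKM + 1), against the mean level of each gene, with 1 grey point per gene, red for the 95 genes higher in LP with close replicates and blue for the lower ones, of which Gm24586 is off the axis. Dotted lines mark a 2-fold difference, and most genes lie between them, while Ly6c1, Rgl3 and Gm8730 lie near 4.

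The promoters of 4 of these genes are shown because the groups share the loss of Id proteins, which hold E proteins off DNA, and because Notch genes were among those higher in LP. Capitals mark the letters searched, on both strands. They are CAGCTG, an E-box that reads alike on either strand, then CACCTG, a second E-box that E proteins bind, and TGGGAA, the core bound by the Notch partner RBPJ. None of the 3 overlaps another where printed, and a match on the other strand appears as the reverse complement. Each sequence is from RefSeq, build GRCm38.p6, read along the strand of the gene and ending at the base before the outermost annotated start, which leaves 198 bases for Cd5 and 250 for the others.
Gzma, chr13:113100982-113101231, minus strand: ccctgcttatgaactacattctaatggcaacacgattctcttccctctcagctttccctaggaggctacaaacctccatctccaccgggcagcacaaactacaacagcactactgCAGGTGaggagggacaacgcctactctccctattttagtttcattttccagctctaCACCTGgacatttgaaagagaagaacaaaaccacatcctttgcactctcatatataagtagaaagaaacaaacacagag
Lgals3, chr14:47373610-47373859, plus strand: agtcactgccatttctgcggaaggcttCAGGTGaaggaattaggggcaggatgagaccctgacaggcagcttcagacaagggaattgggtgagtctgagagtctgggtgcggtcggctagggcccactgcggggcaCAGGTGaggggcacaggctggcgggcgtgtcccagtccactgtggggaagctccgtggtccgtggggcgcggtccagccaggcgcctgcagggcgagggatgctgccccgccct
Scn4b, chr9:45138374-45138623, plus strand: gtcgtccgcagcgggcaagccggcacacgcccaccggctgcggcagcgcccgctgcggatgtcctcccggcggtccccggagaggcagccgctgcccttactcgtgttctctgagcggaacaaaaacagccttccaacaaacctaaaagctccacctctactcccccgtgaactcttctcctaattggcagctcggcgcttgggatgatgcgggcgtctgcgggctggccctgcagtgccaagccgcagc
Cd5, chr19:10739027-10739224, minus strand: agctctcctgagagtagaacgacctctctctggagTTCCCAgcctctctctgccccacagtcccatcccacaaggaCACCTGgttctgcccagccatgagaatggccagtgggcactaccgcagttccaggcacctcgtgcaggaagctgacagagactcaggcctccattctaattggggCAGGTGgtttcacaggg

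Gzma, Lgals3 and Cd5 each held a pair of E-boxes in these windows, and Scn4b held none of the searched letters. Cd5 also held the RBPJ core. These windows are examples and do not stand for the higher or lower genes as sets, where most promoters held none of a given motif. For the shares, the letters were searched in the 250 bases before each listed start, over 84 promoters of 66 of the higher genes and 45 promoters of 33 of the lower genes. CAGCTG occurred in 19.0% of the promoters of higher genes and 17.8% of those of lower genes, against 13% of all 32851 promoters in the table. For CACCTG the shares were 16.7%, 13.3% and 17.2%, and for TGGGAA 21.4%, 24.4% and 21.6% in the same order. The shares of CACCTG and TGGGAA thus lay near that of all promoters in both directions, and no test was made.

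Ly6c1, which encodes a Ly6C surface protein, had the largest difference of the named higher genes. It was listed at 5.26 and 5.76 in the LP libraries, against 1.09 and 1.09 in the L-DKO libraries (4.42 ± 0.32, adjusted p in limma 0.0722). The pTαKO and WT libraries lay between the groups, at 2.71 and 2.48. Its neighbour Ly6c2 was listed at 3.93 and 3.97 against 1.81 and 2.36, with pTαKO at 4.37, above both LP libraries, and WT at 1.70. The sequences of Ly6c1 and Ly6c2 are nearly identical, so how reads were divided between them is uncertain. Both stood higher in LP than in L-DKO without overlap.

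Scn4b, a beta subunit of voltage-gated sodium channels with an immunoglobulin domain, was listed at 6.19 and 6.06 in the LP libraries, against 3.07 and 2.95 in the L-DKO libraries (3.12 ± 0.18). The pTαKO library, at 6.26, stood with LP, and WT, at 3.71, nearer L-DKO. Mpzl2, a homophilic adhesion molecule of the thymus, was listed at 3.24 and 3.18 against 0.96 and 0.48 (2.49 ± 0.38), and its pTαKO value of 3.06 again stood with LP. Itga9, an integrin alpha chain, was listed at 4.02 and 4.04 against 1.80 and 1.36 (2.46 ± 0.34), and Itga4, the alpha chain of the integrin VLA-4, at 5.64 and 5.89 against 4.80 and 4.37 (1.19 ± 0.22). In all of these the LP libraries lay closer to each other than to either L-DKO library. Bst1, an ectoenzyme of the CD38 family, was listed at 3.33 and 3.37 against 0.99 and 0.88, and Lgals3, the β-galactoside-binding protein galectin-3, at 4.56 and 4.22 against 1.33 and 1.43 (3.01 ± 0.29). Lgals3 is also made by macrophages, and was highest in the pTαKO library, at 5.20. Of the 19 measured S100, annexin and galectin genes 5 lay higher (26.3%) and 7 lower (36.8%), with Lgals9 and Lgals1, other galectins, 0.61 and 0.24 lower.

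Regulators of GTPases were found among the named genes in both directions, with Arap2 and Dennd2c among the lower ones, and no list of them was counted. Rgl3, a guanine exchange factor for Ral, was listed at 4.49 and 4.18 in the LP libraries, against 0.38 and 0.50 in the L-DKO libraries (3.89 ± 0.35), at 3.80 in pTαKO and 0.49 in WT. Arhgef10l, a guanine nucleotide exchange factor, was listed at 4.98 and 4.85 against 1.42 and 1.15 (3.63 ± 0.29), at 5.19 in pTαKO and 1.13 in WT. In both genes the libraries labelled as lacking pTα were high and the others low, with no overlap. Rragb, a Rag GTPase of amino acid sensing at the lysosome, was listed at 3.30 and 3.09 against 0.77 and 0.75 (2.44 ± 0.34). Cyth4, an exchange factor for ARF GTPases, was listed at 3.91 and 3.94 against 1.73 and 2.14, Cdc42ep4, an effector of CDC42, at 5.01 and 4.84 against 3.80 and 3.82, and Rgs3, a regulator of G protein signalling, at 3.59 and 3.60 against 2.62 and 2.46. These 3 genes were chosen after their values were seen. Garem, an adaptor between growth factor receptors and the ERK pathway, was listed at 3.84 and 3.43 against 0.15 and 0.44 (3.34 ± 0.42), and at 0.08 in pTαKO and 0 in WT, so only the LP libraries were high.

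Il10ra, the ligand-binding chain of the IL-10 receptor, was listed at 4.60 and 4.71 in the LP libraries, against 1.40 and 1.57 in the L-DKO libraries (3.16 ± 0.26), at 4.63 in pTαKO and 3.33 in WT. L-DKO was thus the low group among the 4 genotypes. Nfkb2, the precursor of the p52 subunit of NF-κB, was listed at 5.24 and 5.23 against 3.62 and 3.62 (1.62 ± 0.18), with pTαKO at 5.53 and WT at 3.54. Inpp4b, a phosphatase of phosphoinositides, was listed at 4.67 and 4.46 against 2.69 and 2.95, and Baiap3, a C2-domain protein of vesicle release, at 6.84 and 6.63 against 4.84 and 5.03. Nfkb2, Inpp4b and Baiap3 were chosen after their values were seen. Of the 27 cytokine receptor chains measured, 7 lay higher and 7 lower in LP without overlap, 25.9% in each direction, near the 22.3% and 22.2% of all genes. Il2rb, the shared beta chain of the IL-2 and IL-15 receptors, was listed at 2.23 and 1.66 against 0.39 and 0.05, and Tnfrsf4 (OX40) at 0.17 and 1.45 against 2.42 and 2.11. Ccdc153, a coiled-coil protein, at 6.36 and 6.45 against 3.20 and 3.52 (3.05 ± 0.18), and Vwce, a secreted protein with von Willebrand factor domains, at 4.36 and 4.52 against 1.78 and 2.16, complete the 15 named genes with Gimap3 and Notch1 below.

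**Figure D2:**
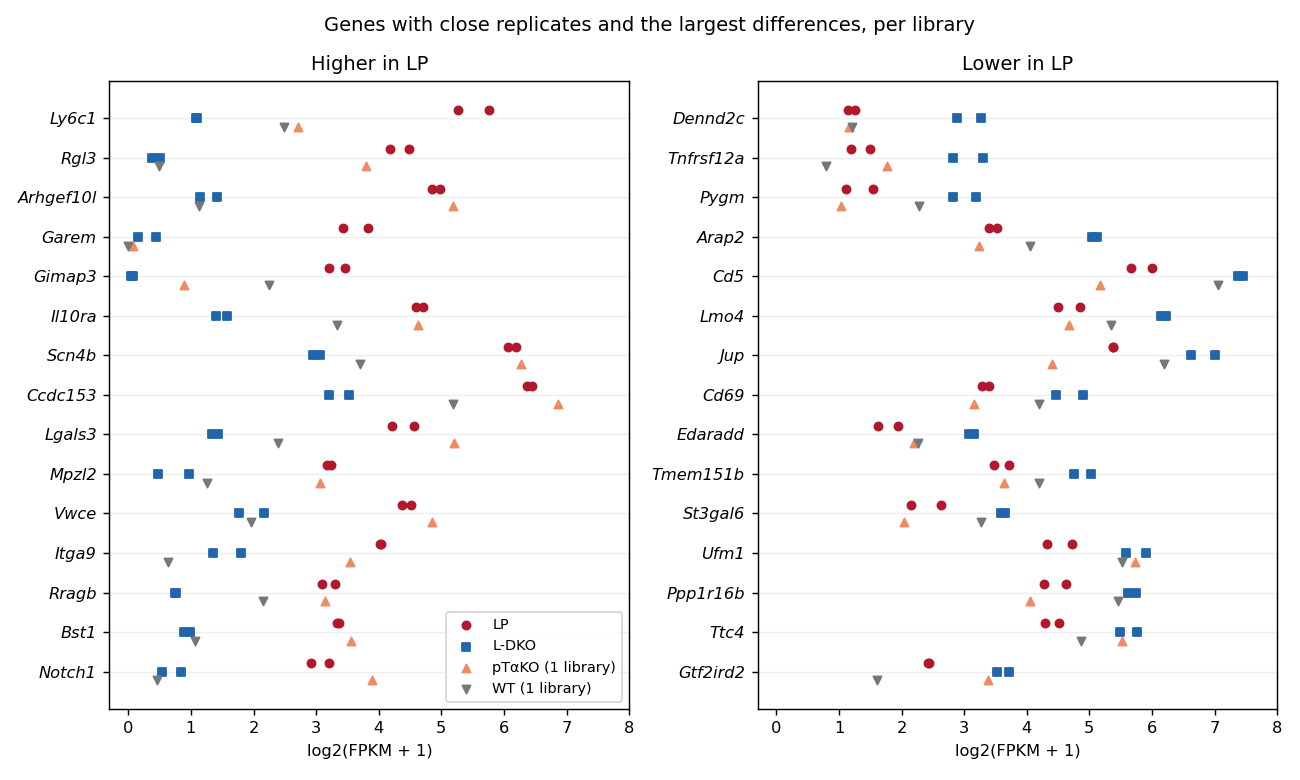
Level of the 15 named genes with the largest differences in each direction among those with close replicates, other than segments, pseudogenes and unnamed models, as log2(FPKM + 1) per library. Red circles are LP, blue squares L-DKO, and triangles the single pTαKO and WT libraries, with the LP pair of Ly6c1 at 5.26 and 5.76 and its L-DKO pair at 1.09.

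The lower genes held reporters of antigen receptor signals. Cd5, which dampens TCR signals and is set by their strength, was listed at 6.0 and 5.67 in the LP libraries, against 7.37 and 7.45 in the L-DKO libraries (-1.58 ± 0.17, adjusted p in limma 0.120). The pTαKO library, at 5.16, lay below both LP libraries, and WT, at 7.05, lay near L-DKO. Cd69, a lectin that holds activated thymocytes in the thymus, was listed at 3.29 and 3.39 against 4.91 and 4.47 (-1.35 ± 0.26), and Nr4a1, a nuclear receptor that reports TCR engagement, at 3.91 and 3.60 against 4.80 and 4.88 (-1.08 ± 0.22). In both, the LP libraries and pTαKO were low and L-DKO and WT high. Nr4a3 was listed at 1.73 and 0.65 against 3.17 and 2.60, Dusp6, a phosphatase of ERK, at 3.91 and 3.31 against 4.90 and 4.40, and Egr1, an immediate early factor downstream of ERK, at 4.79 and 4.27 against 5.60 and 5.22. Of 29 measured reporters 17 lay lower without overlap (58.6%), against 22.2% of all genes, and 3 higher, with a list median of -0.47 against 0.00 over all genes tested. The 3 higher members, Irf4, Spry2 and Bcl2l11, lay 0.92, 0.40 and 0.33 above L-DKO.

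The receptor and its immediate signalling chain differed less. Of 9 measured chains of the TCR complex and pre-TCR, 3 lay higher and 3 lower, none by 2-fold. Cd3g and Cd3e, signalling chains of CD3, were listed at 9.35 and 9.35 and at 8.84 and 8.76 in the LP libraries, against 9.09 and 9.11 and 8.31 and 8.67 in the L-DKO libraries. Trac, the alpha constant region, was listed at 8.34 and 8.10 against 9.01 and 9.28 (-0.92 ± 0.17). Of 40 proximal kinases and adaptors 6 lay higher (15%, against 22.3% of all genes) and 16 lower (40.0%, against 22.2%), again none by 2-fold. Tespa1, an adaptor needed for thymocyte selection, was listed at 4.61 and 4.91 against 5.74 and 5.54, and Ptpn6 (SHP-1), a phosphatase that restrains TCR signals, at 6.15 and 6.23 against 6.71 and 6.90. Fyn, a Src kinase used in iNKT selection, pointed the other way, at 7.18 and 7.60 against 6.98 and 6.63. Pik3r1, the regulatory subunit of PI3 kinase, was listed at 5.62 and 5.28 against 6.49 and 6.47, and Tnk2, a kinase activated by CDC42, at 6.01 and 6.16 against 7.43 and 6.99 (both chosen after their values were seen).

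Jup, the junction protein γ-catenin, was listed at 5.38 and 5.38 in the LP libraries, against 6.62 and 7.01 in the L-DKO libraries (-1.44 ± 0.19), with 4.41 in pTαKO and 6.19 in WT. Arap2, a GTPase-activating protein for ARF6, was listed at 3.53 and 3.39 against 5.11 and 5.04 (-1.62 ± 0.21), and WT, at 4.05, lay between the groups. Flna, an actin cross-linker, was listed at 5.80 and 5.82 against 6.73 and 6.98, and Gsn, which severs actin filaments, at 5.25 and 4.98 against 6.12 and 6.20. The last pair was chosen after values were seen. Lmo4, a LIM-only transcriptional cofactor, was listed at 4.85 and 4.49 against 6.15 and 6.22 (-1.51 ± 0.19). Dennd2c, an exchange factor for Rab GTPases, Tnfrsf12a, the receptor of TWEAK, and Pygm, a glycogen phosphorylase, differed by -1.88 to -1.68. These were the largest differences among lower genes with close replicates that are neither segments, pseudogenes nor unnamed models. Their levels lay between 1.12 and 1.54 in the LP libraries, against 2.82 to 3.30 in the L-DKO libraries. Dennd2c was at 1.15 in pTαKO and 1.21 in WT, and Tnfrsf12a at 1.77 and 0.79, so L-DKO was the high group for both. Edaradd, an adaptor of a TNF receptor family member, Tmem151b, St3gal6, a sialyltransferase, Ufm1, a ubiquitin-like modifier, Ppp1r16b, a targeting subunit of protein phosphatase, Ttc4, a cochaperone of HSP90, and Gtf2ird2 differed by -1.33 to -1.19. Treml2, a surface receptor of the TREM cluster that lies on chromosome 17 as Ptcra does, was listed at 3.06 and 3.39 against 4.56 and 4.25. Within 10 Mb of Ptcra, 10 of 113 genes lay at least 2-fold apart without overlap (8.85%), against 7.63% of 11032 genes elsewhere. Of the 10, 8 were higher and 2 lower. No other region was counted. The higher genes Ccdc153, Mpzl2, Scn4b and Il10ra lie close together on chromosome 9, with listed starts at 44240677, 45042344, 45138624 and 45253837. Cd3g and Cd3e, higher by 0.25 and 0.31, lie between Ccdc153 and Mpzl2, at 44969572 and 44998735. Whether these neighbours differed independently of each other was not tested.

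V segments of the TCR made up the other large part of the lower genes. Of 19 measured Trbv segments 17 lay lower without overlap (89.5%) and 1 higher, with a median of -1.56, and of 101 Trav segments 49 lay lower (48.5%) and 4 higher, with a median of -1.12. Trbv1, on chromosome 6 (40891296 to 40891885), was listed at 5.94 and 5.93 in the LP libraries, against 7.82 and 7.92 in the L-DKO libraries (-1.94 ± 0.13, adjusted p in limma 0.0663), and at 6.28 in pTαKO and 7.86 in WT. The libraries labelled as lacking pTα were thus low and the other 3 high. Trbv16 was listed at 6.67 and 6.91 against 8.51 and 8.64, Trbv26 at 6.91 and 6.95 against 8.10 and 8.23, and Trbv17 at 5.91 and 5.68 against 7.01 and 6.61. The last 3 had pTαKO values between 5.41 and 6.76 and WT values between 6.74 and 8.42. Trav9n-2 and Trav9d-2 were listed at 0 in both LP libraries, against 2.92 to 3.38 in L-DKO. They are near-identical copies, so their reads cannot be told apart with certainty. Segments of the gamma and delta loci pointed the other way. Of 11 measured, 6 lay higher without overlap and none lower. Trdc, the delta constant region, was listed at 4.83 and 5.13 against 4.36 and 4.37, and Trdv5 at 5.66 and 5.06 against 3.80 and 1.97. Tcrg-V1 had values of 2.41 and 2.96 in the LP libraries, against 0 in both L-DKO libraries, but 2.53 in WT. The sort removed cells with a surface gamma-delta receptor.

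Notch1, the receptor that sustains thymocytes up to β-selection, was listed at 2.92 and 3.21 in the LP libraries, against 0.85 and 0.53 in the L-DKO libraries, with pTαKO at 3.89 and WT at 0.46. Among 15 measured targets 9 lay higher without overlap (60.0%, against 22.3% of all genes) and 4 lower (26.7%, against 22.2%), with a median of 0.71. Their summed level, as log2(FPKM + 1), went the other way, at 11.69 and 11.65 in the LP libraries, against 11.92 and 12.03 in the L-DKO libraries. The targets named below are among the higher ones. Dtx1, an E3 ligase and feedback regulator of Notch, had values of 7.30 and 7.70 in the LP libraries and 5.59 and 5.73 in the L-DKO libraries (1.84 ± 0.19), and 3.67 in WT, so L-DKO lay above WT and below LP. Hes1, a repressor induced by Notch, was listed at 3.88 and 3.54 against 1.66 and 0.55, and Myc at 4.44 and 4.71 against 3.94 and 3.81. Of the machinery that presents and cleaves Notch, 5 of 22 genes lay higher and 5 lower, near the shares of all genes. Lfng, a glycosyltransferase that sensitises Notch to its ligands, was listed at 3.18 and 2.57 against 1.61 and 0.13, and Aph1a, a subunit of γ-secretase, at 6.65 and 6.46 against 4.64 and 5.25. Aph1a did not follow the label of pTα in the other libraries, at 4.82 in pTαKO and 5.65 in WT. Of 14 genes of progenitors and double-negative stages 8 lay higher without overlap (57.1%) and 2 lower.

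**Figure D3:**
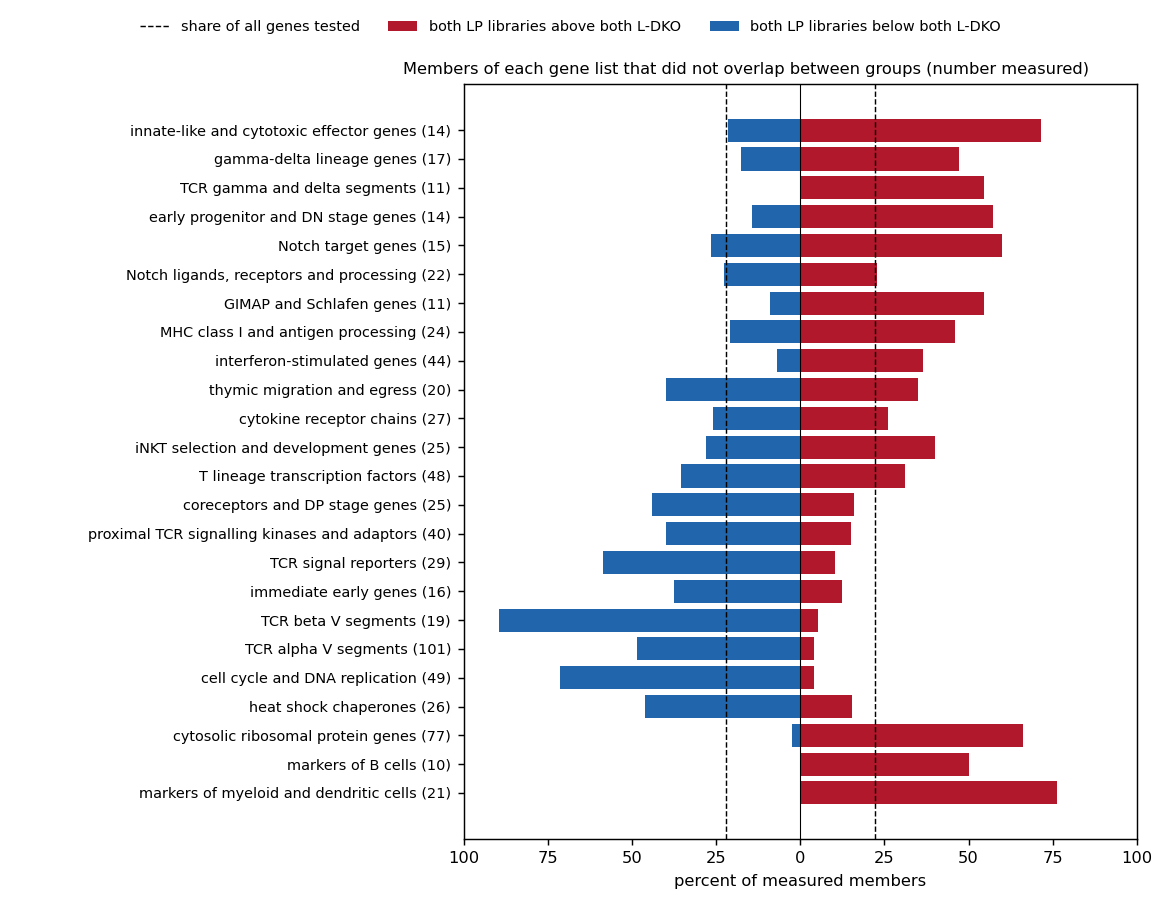
Percent of the measured members of 24 gene lists whose LP libraries lay both above (red, to the right) or both below (blue, to the left) the L-DKO libraries, with the number measured in parentheses. Dashed lines are the shares over all genes tested, 22.3% and 22.2%, and TCR signal reporters reach 58.6% on the left, Notch target genes 60.0% on the right.

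Of 14 measured innate-like and cytotoxic effector genes, 10 lay higher without overlap (71.4%, against 22.3% of all genes) and 3 lower (21.4%, against 22.2%). Gzma, a granule protease on chromosome 13, was listed at 7.51 and 7.19 in the LP libraries, against 5.72 and 5.75 in the L-DKO libraries, 5.95 in pTαKO and 4.66 in WT, so both LP libraries were above all others. The list of migration genes went both ways, with 7 of 20 higher (35.0%) and 8 lower (40.0%), and its median was -0.01. Those named next, Klf2, Ccr7 and Itgb7, are among the higher members and do not stand for the list. Klf2, which controls thymic egress, was listed at 3.56 and 3.37 against 1.79 and 1.95, and at 0.86 in pTαKO and 1.64 in WT. Ccr7, a chemokine receptor that guides thymocytes to the medulla, was listed at 3.04 and 3.05 against 2.08 and 1.95, and Itgb7, an integrin beta chain, at 3.47 and 3.73 against 2.95 and 2.77. These 3 genes were higher in LP than in every other library. GTPases of the GIMAP family, which support lymphocyte survival, were divided. Gimap3 was listed at 3.21 and 3.45 against 0.05 and 0.08 (3.27 ± 0.38), and Gimap4 at 4.02 and 4.36 against 1.59 and 0.91. Gimap1 pointed down, at 7.22 and 7.18 against 7.53 and 7.67. Of the Schlafen genes, Slfn5 was listed at 3.61 and 3.61 against 2.86 and 2.07, and Slfn1 at 3.05 and 2.93 against 1.92 and 1.72. Izumo1r (FR4) was listed at 4.97 and 5.51 against 3.23 and 2.58, and Vdr, the vitamin D receptor, at 3.49 and 3.79 against 0.70 and 1.51, both higher in LP than in the pTαKO and WT libraries.

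Several genes of antigen presentation by MHC class I were higher in LP. B2m, the invariant light chain, was listed at 9.27 and 8.86 in the LP libraries, against 7.82 and 8.0 in the L-DKO libraries (1.16 ± 0.19), and at 9.29 in pTαKO and 7.94 in WT. H2-K1 was listed at 6.74 and 5.76 against 4.88 and 5.11, H2-D1 at 7.89 and 7.20 against 5.97 and 6.43, and Nlrc5, the transactivator of class I genes, at 3.93 and 2.71 against 1.54 and 1.82. LP replicate 1 was the higher LP library in all 4 genes. H2-Q2 pointed down, at 6.70 and 6.19 against 7.56 and 7.24. Class I genes resemble each other in sequence, so the division of their reads is uncertain. Of 24 genes of the list 11 lay higher (45.8%) and 5 lower, and of 44 interferon-stimulated genes 16 higher (36.4%) and 3 lower. Bst2, a restriction factor and interferon target, was listed at 7.52 and 7.50 against 5.97 and 6.53, and Ifi27l2a at 6.64 and 6.72 against 4.58 and 5.55.

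Markers of other cells that the gate could hold stood higher in LP as well. Of 21 measured markers of myeloid and dendritic cells 16 lay higher without overlap and none lower, and their summed level, as log2(FPKM + 1), was 8.81 and 8.78 in the LP libraries, against 8.36 and 8.38 in the L-DKO libraries, with 10.05 in pTαKO and 8.12 in WT. Csf1r and Adgre1, which define macrophages, were low, at 1.64 and 1.44 and at 1.05 and 0.67 in the LP libraries, against 1.22 and 1.06 and 0.16 and 0.08 in the L-DKO libraries. Other myeloid genes stood at higher levels. Lyz2 was at 4.8 and 5.3 in the LP libraries, against 3.2 and 3.7 in the L-DKO libraries. C1qb was at 3.19 and 3.90 against 2.35 and 2.23. Of 10 measured B cell markers 5 lay higher and none lower, with a summed level of 7.19 and 6.97 against 5.93 and 5.98. The higher ones were Jchain, Vpreb1 and the MHC class II pathway genes H2-Aa, H2-Ab1 and Cd74, which are not particular to B cells. Jchain was at 4.72 and 4.94 in the LP libraries and 0.52 in pTαKO, whereas Cd74 was highest in pTαKO, at 6.87. Ms4a1, Cd79a and Pax5, which define B cells, were not analysed here. The groups overlapped in all 7 erythroid and platelet markers and in 4 of 5 stromal markers, the other being Krt18, a keratin, which lay 0.70 lower. The myeloid and B cell markers moved with the innate-like, MHC class I and progenitor genes and with Lgals3, Ly6c1 and Ly6c2 above. The part of these markers in those results was not tested. In sorted bulk cells, fewer cells of a type and less RNA per cell cannot be told apart.

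**Figure D4:**
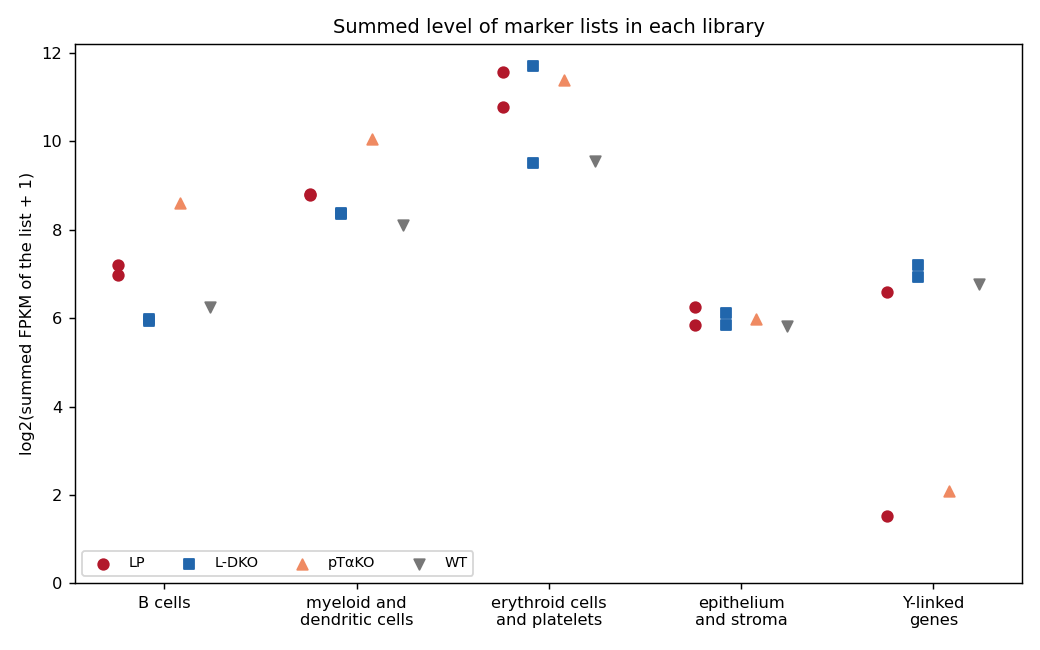
Summed level of 4 lists of markers of other cells and of Y-linked genes in each library, as log2(summed FPKM + 1). Red circles are LP, blue squares L-DKO, and triangles pTαKO and WT, with myeloid markers at 8.81 and 8.78 in LP and 10.05 in pTαKO, and the Y-linked genes split between the LP libraries, at 6.59 and 1.52.

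Genes of proliferation were lower in LP by small amounts. Of 49 cell cycle and replication genes 35 lay lower without overlap (71.4%) and 2 higher, with a median of -0.60. Ccne1, the cyclin of S phase entry, was listed at 3.37 and 2.91 in the LP libraries, against 4.20 and 4.12 in the L-DKO libraries. Hells, a chromatin remodeller of replicating cells, was listed at 3.07 and 2.54 against 3.68 and 4.44, and at 3.12 in pTαKO and 3.10 in WT. The higher pair were Cenpf, a kinetochore protein, by 0.38, and Ccnd1, a D-type cyclin, at 1.28 and 2.68 against 1.03 and 0.71. Chaperones were lower in 12 of 26 genes and higher in 4, with Hspa8 at 9.08 and 8.62 against 9.85 and 9.73. Hspa8 was at 8.56 in pTαKO and 8.67 in WT, so L-DKO was the high group. The summed level of the chaperones was 11.17 and 11.09 in LP, 11.53 and 11.58 in L-DKO, 11.03 in pTαKO and 11.10 in WT. Genes of cytosolic ribosomal proteins lay higher in 51 of 77 cases and lower in 2, with a median of 0.22, and near-identical processed copies make their levels uncertain.

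The single pTαKO and WT libraries, which share no sample with LP or L-DKO, show how the same genes lay when Id proteins were present. Of the 95 higher genes, 72 had all of the LP and pTαKO libraries above all of the L-DKO and WT libraries (75.8%), against 44.6% of the genes with LP above L-DKO at any size and 9.94% of all genes tested. Of the 56 lower genes, 41 had the reverse order (73.2%), against 39.6% of the genes with LP below L-DKO at any size and 8.8% of all genes tested. The members were chosen on LP and L-DKO, so only the place of the pTαKO and WT values is free in these counts. They were also chosen for a gap of at least 2-fold, and a wide gap makes this order easier to meet. The shares at any size are thus not a like comparison. Ly6c1, for example, met the order with pTαKO at 2.71 and WT at 2.48. By size, pTαKO lay at least 2-fold above WT in 45 of the 95 (47.4%), against 7.77% of all genes, and at least 2-fold below WT in 25 of the 56 (44.6%), against 4.63%. The median of pTαKO minus WT was 0.79 for the higher and -0.84 for the lower genes. pTαKO and WT had 1 library each, and the pTαKO library had the highest levels of myeloid markers. Y-linked genes were also low in pTαKO and high in WT, with Ddx3y at 0.67 and 4.36, and were split between the LP libraries. The labels do not give the sex of the mice. In pTαKO against WT, the pTα genotype cannot be told apart from these differences, so this is a description of these libraries.

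A smaller set was highest in LP by a margin, though some of its members were well expressed in the other libraries too. In 8 of the 95 higher genes both LP libraries lay at least 1 above all 4 other libraries. They were Ly6c1, Gzma, Klf2, Garem, Pqlc3, 5830411N06Rik, Atad3aos and Gm21762, found after the values were seen. Ly6c2, which may share reads with Ly6c1, was highest in pTαKO, at 4.37. Pqlc3, a transporter-like membrane protein, was listed at 5.79 and 5.90 in the LP libraries, against 3.54 and 3.65 in the L-DKO libraries, 4.06 in pTαKO and 4.59 in WT. 5830411N06Rik was listed at 2.86 and 3.34 against 0.21 and 0.12, with 0.43 and 0.32 in pTαKO and WT. The difference between LP minus L-DKO and pTαKO minus WT was 4.19 for Ly6c1 (adjusted p in limma 0.368) and 3.27 for Garem (adjusted p in limma 0.968), in a fit that assumes the single libraries vary like the replicated groups, so neither passed. In that fit 6 genes passed. Gm8730 was one (4.75, adjusted p in limma 0.016), and the other 5 had a pTαKO library far from the rest, with 4 at or near 0 there and Tmcc3 at 12.48. For Gzma that difference was 0.33, as its pTαKO library also lay above WT.

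**Figure D5:**
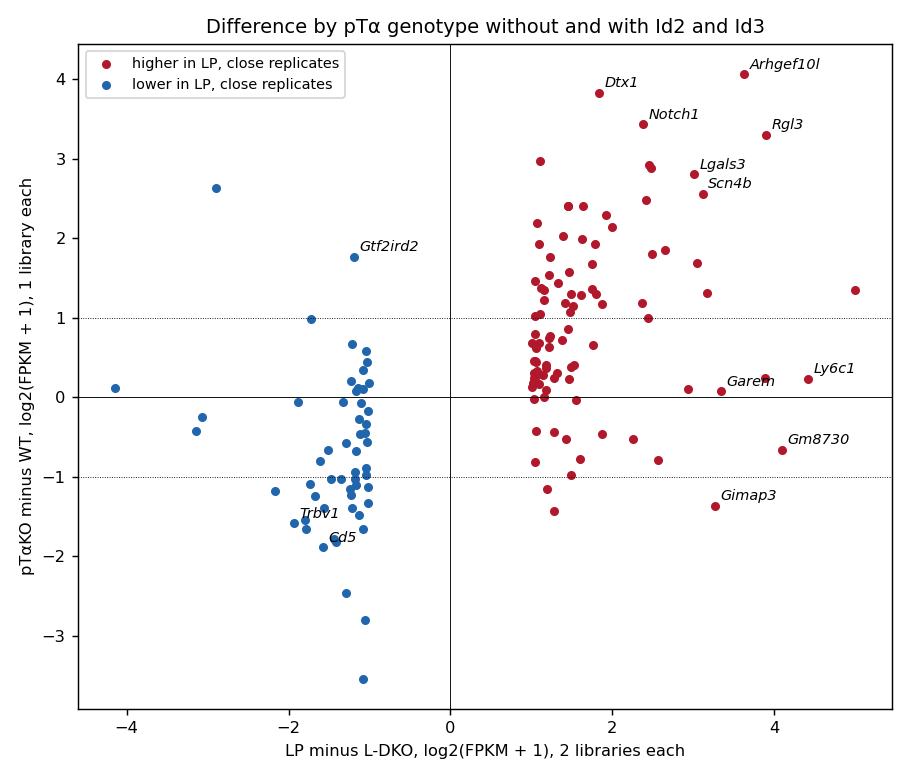
Difference pTαKO minus WT (1 library each) against LP minus L-DKO (2 libraries each), both as log2(FPKM + 1), for the genes with close replicates other than Gm24586, red for higher and blue for lower in LP. Most red points lie above 0 and most blue points below it on the vertical axis, while others, such as Gimap3 (-1.37), Gm8730 (-0.66) and Gtf2ird2 (1.77), lie on the opposite side and Ly6c1 and Garem near 0.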

How the data were processed

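Poly(A)-selected RNA of sorted DP thymocytes was sequenced. The submitters' processing notes name Trimmomatic 0.32 for trimming, TopHat2 2.0.9 for alignment and Cufflinks 2.2.0 for quantification, on mm10. The deposited table gives log2 FPKM per the file headers, taken as log2(FPKM + 1) since its values are 0 or positive. The authors had removed low-quality genes by a rule not given in the sources used here, and all 13097 entries reached at least 1.016 FPKM in some library. Their mean and difference columns were not used. A library of pTαKO (replicate 1), removed by the authors for its quality, was not analysed here.

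For symbols with several entries (1540 entries) only the most abundant was kept, by mean FPKM, and lost hyphens were restored in 467 entries from gene name tables. The 12063 genes whose mean FPKM reached 0.5 were fitted over 6 libraries, 1 mean per group, with limma 3.58.1 in R 4.3.3 (lmFit, eBayes with a trend), leaving 2 residual degrees of freedom, and p values were adjusted by Benjamini-Hochberg at a threshold of 0.05. The script was tested on simulated data. Same-numbered LP and L-DKO libraries did not vary together (correlation of deviations 0.035), so the numbers were not taken as pairs. Non-overlap means that both LP libraries lay beyond both L-DKO libraries. Genes were named as the markers given for the comparison, the called genes, up to 15 in each direction with the largest differences among those with close replicates (leaving out segments, pseudogenes and unnamed models), and up to 6 leading members of each gene list. The members, lists and rules were chosen with earlier results of these data known. Promoters and coordinates are from RefSeq tables for GRCm38.p6. The alternatives were another pseudocount, other filters, 2 rescalings, summed entries, no trend, the 4 libraries alone, a replicate block and leaving out each library. A test of the difference between LP minus L-DKO and pTαKO minus WT was added after the data were seen.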

Additional observations from a re-analysis of the deposited data

Results flagged for a closer look

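The difference between LP minus L-DKO and pTαKO minus WT passed the test for 1 of the named genes. Gm8730, a pseudogene, differed by 4.09 between LP and L-DKO, whereas pTαKO minus WT was -0.66 (difference of differences 4.75, adjusted p in limma 0.016). With 1 pTαKO and 1 WT library the test rests on an assumed spread.

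Of the 231 named genes whose LP and L-DKO libraries did not overlap, 57 had the pTαKO library on the opposite side of WT at any size. In 7 of these both differences were at least 2-fold and none passed the test of the difference of differences. Gimap3 differed by 3.27 between LP and L-DKO, whereas pTαKO minus WT was -1.37 (adjusted p in limma 0.457). Gtf2ird2 differed by -1.19, whereas pTαKO minus WT was 1.77 (adjusted p in limma 0.658). Tcrg-V1 differed by 2.68 and -2.11 in the same order, the chemokine gene Ccl5 by 2.03 and -1.13, Izumo1r by 2.33 and -1.96, Tnfrsf4 by -1.45 and 1.43, and the histone gene Hist1h2bj by 2.33 and -1.96 (adjusted p in limma between 0.457 and 0.996).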

How the results depend on the processing

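The count of genes called higher was 1 in the fit reported, 3 with a mean FPKM of at least 5, 3 with upper-quartile scaling and 0 with no trend (where Gm8730 had adjusted p = 0.0858 in limma). Scn4b and Ccdc153 then passed, with adjusted p = 0.0424 and 0.0456 under the stricter filter and 0.0476 each under the scaling. Under the filter of 5 FPKM, genes at least 2-fold apart numbered 318 higher and 200 lower, since fewer genes were tested. Leaving out each library in turn gave 1 to 5 genes called higher and 1 to 7 called lower, and 751 to 988 higher and 488 to 677 lower genes at least 2-fold apart without overlap, where a lone library is assumed to vary like the others. Gm8730 did not pass without L-DKO replicate 1 (adjusted p = 0.134 in limma) or replicate 2 (0.116). Id3, at -0.05 in the fit reported, ran from -0.75 to 0.66 when each library was left out, turning to 0.56 without LP replicate 1 and reaching its highest value without L-DKO replicate 2, and the cause was not tested. With the replicate block 1 gene was higher and 1 lower, and no other call changed. Of 2966 alternative values of named genes 2957 kept their direction and side of the threshold. This count was largely fixed by how the genes were chosen. Of the 233 named genes 231 had no overlap between groups, so leaving out a library could not reverse them. Both of the 2 reversed values were of Id3. Among the named genes only Gm8730 and Gm24586 passed in the fit reported, so for the rest keeping their side mostly meant staying uncalled. Of the list medians, 23 of 390 changed sign, in 15 lists, all with small medians. The MHC class I median was -0.07 without LP replicate 1, and the migration median, -0.01 as reported, was 0.02 with upper-quartile scaling. Without reads per library, the error of low values cannot be given.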
